A study of Mus musculus with 36 samples.

Results

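Transcripts of 10 genes for the synthesis and export of bile acids were followed in the livers of mice fed tomato powder. The genes are Cyp7a1, Cyp8b1, Cyp27a1, Cyp7b1, Nr1h4, Nr0b2, Abcb11, Abcb4, Slc10a1 and Baat, listed by name and found by their Ensembl identifiers among the 53715 identifiers of the count table. All 10 were counted in every library and passed the filter on low counts, as did 14068 genes in all. Every mouse was a male of the inbred C57BL/6 strain, was put on its diet at 4 weeks of age and was 10 weeks old at collection. The control group ate AIN93G, a purified rodent diet (12 libraries). The Red group ate a diet with 10% by weight of red tomato powder (12 libraries), and the Tangerine group one with 10% of tangerine tomato powder (12 libraries). Red tomatoes are known for all-trans lycopene, and tangerine tomatoes for cis forms of lycopene. The treatment text allows for a group of fewer than 12 mice, whereas each diet has 12 libraries with mouse numbers of their own, so each library was taken as a mouse.

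Hepatocytes make bile acids from cholesterol. In the classic route Cyp7a1 adds the hydroxyl group that commits cholesterol to the pathway, and Cyp8b1 directs the product towards cholic acid. An alternative route starts with Cyp27a1 in mitochondria and continues through Cyp7b1, and Baat then joins the finished acids to taurine or glycine. Bile acids are pumped into the canaliculus by Abcb11 (the bile salt export pump) beside phospholipid flopped by Abcb4, and they return from the blood through Slc10a1 (the sodium-dependent uptake carrier). Nr1h4 encodes FXR, the nuclear receptor for bile acids, and Nr0b2 encodes SHP, a repressor that FXR induces and that dampens Cyp7a1 and Cyp8b1. Synthesis in liver is known to follow the daily feeding cycle.

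Sequences just upstream of the start were at hand for 7 of the 10 genes (8 promoters, RefSeq, GRCm38.p6). 4 are shown, each as the 250 bases before the start on the gene's own strand, because Cyp8b1, Nr1h4 and Abcb11 carry the correlations described below and Nr0b2 holds the densest group of motif matches. Capitals mark exact matches, on either strand, to the E-box CACGTG, the D-box (TTATGTAA or TTACGTAA), the nuclear receptor element AGGTCA, the LRH-1 element (CAAGGTCA or CAAGGCCA) or the FXR inverted repeat (AGGTCA and TGACCT with 1 base between). The windows are chr9:121916306-121916555 (minus strand) for Cyp8b1, chr10:89506659-89506908 (minus strand, a start inside the longer gene) for Nr1h4, chr4:133553126-133553375 (plus strand) for Nr0b2 and chr2:69342617-69342866 (minus strand) for Abcb11.
Cyp8b1: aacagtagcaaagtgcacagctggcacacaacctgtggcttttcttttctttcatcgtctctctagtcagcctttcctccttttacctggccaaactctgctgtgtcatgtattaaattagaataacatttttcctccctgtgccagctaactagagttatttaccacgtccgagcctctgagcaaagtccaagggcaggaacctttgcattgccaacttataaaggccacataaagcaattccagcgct
Nr1h4: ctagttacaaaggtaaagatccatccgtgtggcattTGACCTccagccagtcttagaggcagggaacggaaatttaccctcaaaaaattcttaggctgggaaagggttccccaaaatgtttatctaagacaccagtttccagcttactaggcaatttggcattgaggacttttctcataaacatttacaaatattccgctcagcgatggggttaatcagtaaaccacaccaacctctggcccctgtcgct
Nr0b2: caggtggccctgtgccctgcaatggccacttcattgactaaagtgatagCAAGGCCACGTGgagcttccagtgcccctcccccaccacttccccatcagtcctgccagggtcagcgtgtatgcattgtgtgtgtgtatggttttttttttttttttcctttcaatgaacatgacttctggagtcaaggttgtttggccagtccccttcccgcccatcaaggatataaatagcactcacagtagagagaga
Abcb11: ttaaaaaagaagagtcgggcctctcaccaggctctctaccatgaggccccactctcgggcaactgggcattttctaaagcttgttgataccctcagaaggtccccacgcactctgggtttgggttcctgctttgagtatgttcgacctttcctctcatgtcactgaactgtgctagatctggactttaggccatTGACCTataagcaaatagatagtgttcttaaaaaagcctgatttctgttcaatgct
In Nr0b2 the LRH-1 element CAAGGCCA, 201 to 194 bases before the start, overlaps the E-box at 195 to 190 bases. Abcb11 has the nuclear receptor element, read on the other strand as TGACCT, 56 to 51 bases before its start, and Nr1h4 has it 214 to 209 bases before. Another copy lies 87 to 82 bases before an alternative start of Slc10a1. None of these letters occurs in the Cyp8b1 window. Among all 32851 promoters of this length the E-box was found in 6.02%, the nuclear receptor element in 14%, the LRH-1 element in 3.28%, the D-box in 0.931% and the FXR inverted repeat in 0.00609%. These matches describe letters and not binding.

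Library totals ran from 21290169 to 33810573 counts, and the lowest count of any of the 10 genes was 165. Hepatocyte transcripts were abundant in every liver except for Trf at 0 to 3 counts, for which 63.5% of exon bases are shared with another gene. Of the 8 cholangiocyte markers, Krt7, Krt19, Cftr and Sctr stayed at or below 1.18 CPM (counts scaled to a common library size), Epcam reached 2.51 and Sox9 5.73 CPM, and Spp1 (9.01 to 107 CPM) and Slc10a2 (23.2 to 79.5 CPM) were present in every liver. The sum of the 8 ranged from 41.7 to 105 CPM on control, from 44.6 to 84.6 on red and from 54.2 to 165 on tangerine, where mouse 192 was highest, and its part in the results was not tested. Of the 4 ileal markers Fgf15 and Fabp2 were at 0 in all libraries, and the others had at most 2 counts. Red mouse 186 held 5070 counts of T cell markers (next highest red liver 107) and 223 of adipose markers (next highest 7), and it was the lowest red liver for Cyp27a1, Cyp7b1, Nr1h4, Abcb11 and Slc10a1 and the highest for Cyp8b1. Tangerine mouse 216 held 310 counts of pancreas markers (next highest tangerine liver 2, highest red liver 11). It was the lowest tangerine liver for Abcb11 and Abcb4 and the highest for Cyp7a1 and Nr1h4. The mitochondrial transcript mt-Te divided the libraries into 16 with 2.72 to 11.2 CPM (4 control, 8 red, 4 tangerine) and 20 with 17.0 to 27.9 CPM. This division, noticed in the data and called the mt-Te library set below, went with a difference in 36.3% of all genes tested (edgeR adjusted p under 0.05, diet in the same fit). Of the 10 genes only Baat passed for it (log2 difference -0.14 in the low set, edgeR adjusted p = 0.0261).

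Between genes, levels can be compared only per length of transcript. The length used joined all annotated exons of a gene (9.38 kb for Abcb4). It can exceed that of the transcript present and so lower the value, which makes the order approximate. On the scale of CPM per kilobase of annotated exon, the uptake carrier Slc10a1 had the highest median over the 36 libraries, 397 (range 323 to 645), and it was above the next gene in 36 of 36 libraries. Cyp27a1 followed at 219, then Cyp8b1 at 180 and Baat at 137. Cyp27a1 was above Cyp8b1 in 28 libraries and Cyp8b1 above Baat in 28 libraries, so the ranges of these neighbours overlapped. Abcb11 stood at 78.7 per kilobase, below Baat in 36 of 36 libraries, and Cyp7b1 at 65.4. The regulators lay lower, with Nr1h4 at 49.8 and Nr0b2 at 35.9. Abcb4 had a median of 19.9 and Cyp7a1 one of 16.7, and Abcb4 was the higher of the pair in 24 of 36 libraries. Cyp7a1 reached from 1.64 to 51 CPM per kilobase, so that its highest liver passed the median of Nr1h4 and its lowest was under every other gene.

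Variation between mice on the same diet divided the 10 genes. The standard deviation of log2 CPM within diets was 0.963 for Cyp7a1, larger than that of 99.3% of the genes tested, against a median of 0.243 over all of them. Nr0b2 (0.564), Cyp7b1 (0.524) and Cyp8b1 (0.410) were also variable, each above at least 80.7% of the genes tested. In the other group stood Abcb11 (0.150), Baat (0.150), Cyp27a1 (0.164), Nr1h4 (0.191), Slc10a1 (0.194) and Abcb4 (0.209), all below that median. Thus the hydroxylases Cyp7a1, Cyp8b1 and Cyp7b1 and the repressor varied most, and the transporters, the receptor and the conjugating enzyme least. Cyp27a1, an enzyme of the alternative route like Cyp7b1, was among the least variable, so the division did not follow the class of gene.

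**Figure D1:**
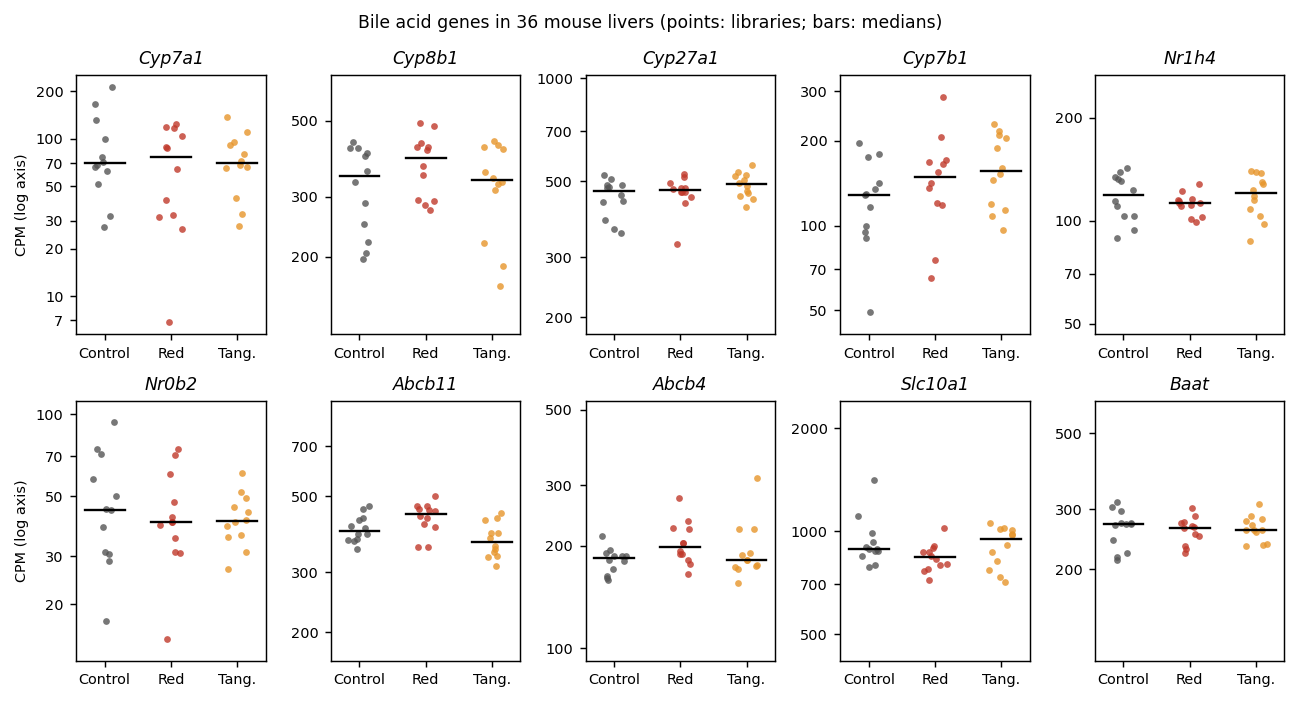
CPM of the 10 genes in each of 36 livers on log axes, by diet (points are libraries, bars are medians). The points of the 3 diets overlap in every panel, Cyp7a1 spreads from 6.84 to 213 CPM, and Abcb11 sits highest on red (median 445) and lowest on tangerine (median 367).

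Whether either powder altered the transcripts was tested with edgeR's quasi-likelihood F test over all 14068 genes, with Benjamini-Hochberg adjusted p under 0.05 as the call. With red against control 0 of the 10 genes were called, where 0.149% of all genes tested were. At an unadjusted p under 0.05 there was 1 (Abcb4), against 13.3% of all genes, and DESeq2 called 0, against 1.37%. With tangerine against control 0 of 10 were called (background 0.0142%), 0 had an unadjusted p under 0.05 (background 5.47%) and DESeq2 called 0 (background 0.0498%). With tangerine against red 0 of 10 were called (background 1.71%), 1 had an unadjusted p under 0.05 (Abcb11, background 15.1%), and DESeq2 called that gene (background 3.39%). For the mean of both powders against control the 3 counts were 0, 0 and 0, beside 0.00711%, 6.77% and 0.124% of all genes. For any difference among the 3 diets they were 0, 1 (Abcb11) and 0, beside 1.18%, 13.9% and 2.94%. At these shares a list of 10 genes with 0 or 1 calls does not stand apart from the background. The median log2 fold change of the 10 genes was 0.011 for red and 0.003 for tangerine against control, beside -0.005 and -0.012 over all genes tested. In whole liver RNA, fewer cells of a type and less RNA per cell cannot be told apart, and the comparisons that use control share the same 12 control libraries.

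**Figure D2:**
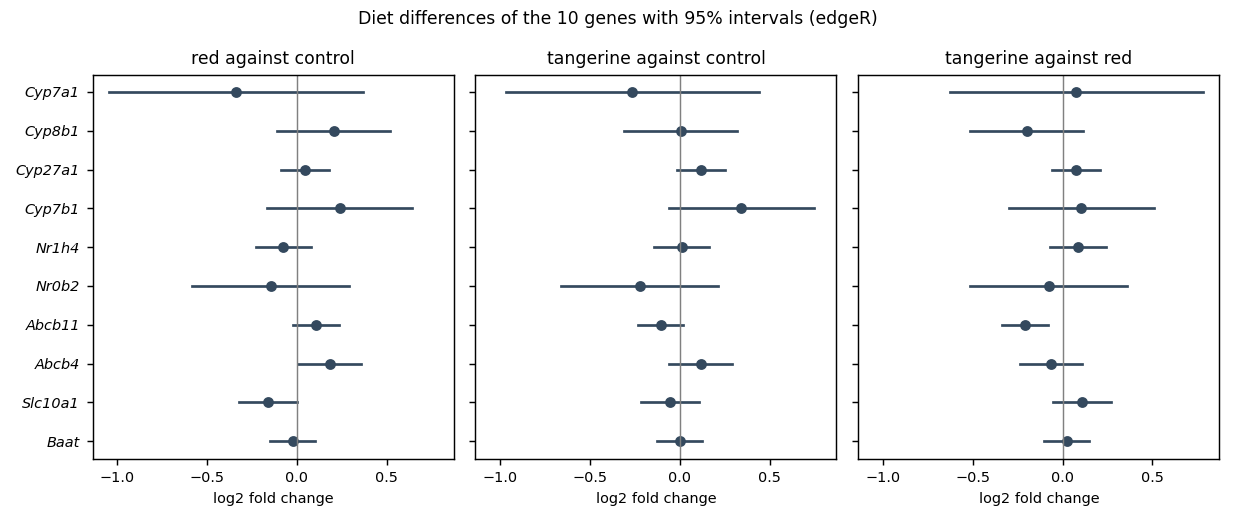
Log2 fold changes of the 10 genes (points) with 95% intervals (lines) from edgeR, 12 libraries per diet, in the 3 comparisons of single diets. Intervals that leave 0 out are those of Abcb4 for red against control (0.008 to 0.356) and Abcb11 for tangerine against red (-0.339 to -0.084).

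Cyp7a1 (chromosome 4, 6265612 to 6275633, minus strand, protein coding) sets the pace of the classic route. Its level ran from 27.4 over a median of 69.8 to 213 CPM on control, from 6.84 over 76.0 to 124 CPM on red, and from 28.1 over 70.0 to 138 CPM on tangerine. Medians were close and the groups overlapped throughout, with 6 of 12 red and 6 of 12 tangerine livers above the control median. A single red liver (mouse 133) held the lowest value, from 165 counts, and a control liver (mouse 136) the highest. The fitted difference was -0.34 on the log2 scale for red against control (95% interval -1.05 to 0.37, edgeR adjusted p = 0.710) and -0.26 for tangerine (-0.97 to 0.44, adjusted p = 1). For red against control the interval corresponds to folds from 0.485 to 1.29.

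Cyp8b1 (chromosome 9, 121914356 to 121916305, minus strand), the sterol 12-alpha-hydroxylase, ranged from 198 to 433 CPM on control (median 345), from 274 to 493 on red (median 390) and from 164 to 437 on tangerine (median 335). Above the control median were 8 of 12 red livers and 5 of 12 tangerine livers. The fold was 1.15 for red against control (95% interval 0.928 to 1.43, edgeR adjusted p = 0.592), and the log2 difference was 0.007 for tangerine against control (-0.308 to 0.321, adjusted p = 1). Neither difference passed the spread between livers.

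In the alternative route, Cyp27a1 (chromosome 1, 74713574 to 74737892, plus strand) was even across livers. Control livers held 352 to 521 CPM (median 467), red livers 328 to 524 (median 470) and tangerine livers 420 to 558 (median 489), with 3 tangerine livers above every control. The tangerine-to-control fold was 1.09 (95% interval 0.989 to 1.19, edgeR adjusted p = 0.936), and that of red was 1.03 (0.940 to 1.13, adjusted p = 0.815). Cyp7b1 (chromosome 3, 18071950 to 18243338, minus strand), the oxysterol 7-alpha-hydroxylase, ranged from 49.2 to 197 CPM on control (median 128), from 65.2 to 287 on red (median 149) and from 96.6 to 229 on tangerine (median 156). On each powder 8 of 12 livers were above the control median. Its fold was 1.27 on tangerine (95% interval 0.958 to 1.68, adjusted p = 0.954) and 1.18 on red (0.892 to 1.56, adjusted p = 0.639). Both intervals include no change.

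The receptor gene Nr1h4 (chromosome 10, 89454234 to 89533585, minus strand) was tightest on red. Its values were 89.1 to 143 CPM on control (median 119), 99.2 to 128 on red (median 113) and 87.3 to 139 on tangerine (median 121). Only 2 of 12 red livers exceeded the control median. The red-to-control fold was 0.949 (95% interval 0.853 to 1.06, edgeR adjusted p = 0.708) and the tangerine-to-control fold 1.01 (0.905 to 1.12, adjusted p = 1). Nr0b2 (chromosome 4, 133553376 to 133556536, plus strand) ranged from 17.3 to 93.2 CPM on control (median 44.6), from 14.9 to 74.6 on red (median 40.2) and from 26.9 to 60.5 on tangerine (median 40.6). On each powder 4 of 12 livers passed the control median, and tangerine livers spread least. The folds were 0.904 for red (95% interval 0.669 to 1.22, adjusted p = 0.816) and 0.858 for tangerine (0.634 to 1.16, adjusted p = 1).

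Among the exporters, Abcb11 (chromosome 2, 69238282 to 69342616, minus strand, 3.01% of its exon bases shared with genes on the other strand) differed most between the powders. Control livers ranged from 351 to 467 CPM (median 396), red livers from 355 to 501 (median 445) and tangerine livers from 314 to 447 (median 367). Of the red livers 10 of 12 were above the control median and 3 above every control, whereas 3 of 12 tangerine livers were above that median and 5 were below every control. The red and tangerine ranges still overlapped. Tangerine against red gave a fold of 0.864 (95% interval 0.791 to 0.943, unadjusted p = 0.00176), with an adjusted p of 0.0726 in edgeR and 0.0393 in DESeq2. Neither powder alone differed from control beyond the spread, with log2 fold changes of 0.11 for red (edgeR adjusted p = 0.481) and -0.11 for tangerine (adjusted p = 0.954). The edgeR call was reached when Tangerine mouse 128, 160 or 195 or Red mouse 177 or 186 was left out singly, with adjusted p down to 0.0391. With a score of clock genes (described below) as covariate, the log2 difference of -0.21 became -0.10 (adjusted p = 0.595). It was -0.21 without Red 186 and Tangerine 216 (adjusted p = 0.0910) and -0.22 with the mt-Te library set as covariate (adjusted p = 0.0730). The clock score itself differed between these diets, so the share of diet and of clock state cannot be told apart.

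Abcb4 (chromosome 5, 8893717 to 8959231, plus strand), the phospholipid flippase, ranged from 158 to 213 CPM on control (median 184), from 165 to 276 on red (median 198) and from 155 to 315 on tangerine (median 182). On red 9 of 12 livers were above the control median and 4 above every control, and on tangerine 5 and 3. The highest value was that of Tangerine mouse 226. The red-to-control fold of 1.13 (95% interval 1.01 to 1.28) had an unadjusted p of 0.0412 and an edgeR adjusted p of 0.358, so it was not called.

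Slc10a1 (chromosome 12, 80953183 to 80968705, minus strand) was the most abundant of the 10 in CPM as well, at 787 to 1418 on control (median 887), 722 to 1020 on red (median 840) and 711 to 1061 on tangerine (median 947). A single control liver (mouse 245) held the 1418. On red 3 of 12 livers were above the control median and 3 below every control. The red-to-control fold was 0.895, a log2 difference of -0.16 (95% interval -0.322 to 0.002, unadjusted p = 0.0523, edgeR adjusted p = 0.380). Without Control mouse 245 that log2 difference was -0.09. Baat (chromosome 4, 49489422 to 49506557, minus strand) showed the smallest differences. Its medians were 272 CPM on control (213 to 315), 265 on red (223 to 301) and 260 on tangerine (235 to 311). The fold was 0.984 for red (95% interval 0.902 to 1.07, adjusted p = 0.907) and 0.999 for tangerine (0.915 to 1.09, adjusted p = 1), which bounds any change of Baat more closely than that of the hydroxylases.

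The other genes of the pathway were read from the same fits in 4 lists. The lists were chosen with earlier results of these data known. A count of calls beside the share of all genes is therefore a description and not a test. Of 19 genes for further synthesis steps (side-chain oxidation, ring reduction, coenzyme A ligation) 17 were tested, and edgeR called 0 in any of the 5 comparisons. Their median log2 fold change was 0.02 on red and 0.005 on tangerine relative to control. At an unadjusted p under 0.05 there were 2 for red and 0 for tangerine against control, and 4 between the powders, beside 13.3%, 5.47% and 15.1% of all genes tested. DESeq2 called 1 of them, Cyp39a1. The smallest p of any difference was that of Cyp39a1, the oxysterol 7-alpha-hydroxylase specific for the 24-hydroxylated form. It had medians of 27.5 CPM on control, 18 on red and 25.3 on tangerine, with 6 of 12 red livers below every control. Its red-to-control fold was 0.676 (95% interval 0.541 to 0.844), with an adjusted p of 0.0975 in edgeR and 0.0336 in DESeq2. Akr1d1, the ring-reducing enzyme, had a fold of 0.783 on red (edgeR adjusted p = 0.264), and Acox2, a peroxisomal side-chain oxidase, one of 0.876 for tangerine against red (adjusted p = 0.154). Hsd3b7, an early enzyme of both routes, was listed at 0 counts in all 36 libraries. In the annotation 99.2% of its exon bases are shared with another gene, so its 0 was not read as absence of the transcript.

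Of 17 regulators of synthesis 15 were tested and 0 were called in any comparison, with 3 genes at an unadjusted p under 0.05 for red against control, 1 for tangerine against control, and 3 between the powders, beside the same 13.3%, 5.47% and 15.1% of all genes. DESeq2 called 1 of them, between the powders. Fgfr4, the hepatic receptor for the intestinal hormone FGF15 that represses Cyp7a1, had medians of 52.9 CPM on control, 58.9 on red and 49.8 on tangerine. With 5 of 12 red livers above every control and 5 of 12 tangerine livers below every control, its tangerine-to-red fold was 0.858 (95% interval 0.786 to 0.936), with an adjusted p of 0.0551 in edgeR and 0.0271 in DESeq2. Nfil3, a repressor of D-box genes, had a fold of 0.634 in that comparison (edgeR adjusted p = 0.122). Ppargc1a, a coactivator of fasting metabolism, had a fold of 0.727 for red against control (adjusted p = 0.218).

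Among 16 other genes listed under bile transport 14 were tested. Not all are transporters, since Ephx1, for example, is an epoxide hydrolase. The choice of this list with earlier results known means that its count of calls is no test against the share of all genes. For tangerine against red 2 were called higher and 0 lower, where 1.71% of all genes were called. Against control 0 were called for either powder. There 6 for red and 1 for tangerine had an unadjusted p under 0.05 (13.3% and 5.47% of all genes), and Ephx1 was counted in both. The called pair was Abcg5 and Abcg8, whose proteins together secrete sterols into bile. Abcg5 ranged from 60.2 to 99.9 CPM on control (median 83.8), from 47.9 to 77.6 on red (median 67.9) and from 71.0 to 103 on tangerine (median 86.0). Abcg8 ranged from 82.8 to 168 CPM on control (median 124), from 75.7 to 120 on red (median 107) and from 106 to 170 on tangerine (median 132). In both genes 0 of 12 red livers reached the control median. The tangerine-to-red fold was 1.27 for Abcg5 (95% interval 1.14 to 1.42, edgeR adjusted p = 0.0173) and 1.27 for Abcg8 (1.12 to 1.43, adjusted p = 0.0300). For red against control the fold of Abcg5 was 0.811, with an adjusted p of 0.0729 in edgeR and 0.0275 in DESeq2. With the clock score as covariate the log2 differences between tangerine and red, 0.35 and 0.34, were 0.15 and 0.10 (adjusted p = 0.483 and 0.677), with the mouse number as covariate 0.31 and 0.31 (adjusted p = 0.0599 and 0.0942), and without Red 186 and Tangerine 216 together 0.31 and 0.29 (adjusted p = 0.0528 and 0.109). Leaving out 1 library kept the call of Abcg5 in 36 of 36 refits and lost that of Abcg8 in 5, those without Red 175 or 186 or Tangerine 215, 216 or 217 (adjusted p up to 0.0718), and with the mt-Te library set as covariate the adjusted p of Abcg8 was 0.0678. Of the listed sterol and bile pumps, then, the pair for sterols was higher on tangerine than on red, while Abcb11 had the opposite sign without passing the edgeR threshold. Abcc3, a pump that returns conjugates to the blood, had a fold of 1.40 on red against control, with an adjusted p of 0.118 in edgeR and 0.0479 in DESeq2.

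A list of 11 genes induced by FXR includes Nr0b2, Abcb11 and Abcb4, and 8 of the 11 were tested. It was also chosen with earlier results known, so its count of calls is again a description. For red against control 1 rose and 0 fell, where 0.149% of all genes were called. The gene was Osgin1, which is also known to respond to oxidative stress. It ranged from 46.3 to 161 CPM on control (median 78.2), from 44.3 to 316 on red (median 187) and from 44.8 to 195 on tangerine (median 139). Of the red livers 7 of 12 exceeded every control. The red-to-control fold was 2.31 (95% interval 1.65 to 3.24, edgeR adjusted p = 0.0167, with 36 of 36 calls when 1 library was left out), and that of tangerine was 1.65 (1.18 to 2.31, adjusted p = 0.587). With the clock score as covariate the log2 difference of red against control, 1.21, was 0.86 (adjusted p = 0.336). The median log2 fold change of the tested list was -0.012 on red and -0.001 on tangerine against control, close to the -0.005 and -0.012 of all genes. For tangerine against red it was -0.071, beside -0.005. At an unadjusted p under 0.05 in edgeR there were 2 for red and 2 for tangerine against control, and 3 between the powders. The shares of all genes tested were 13.3%, 5.47% and 15.1%. Osgin1 was the only gene of the 8 that edgeR called, while DESeq2 also called Abcb11 for tangerine against red.

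**Figure D3:**
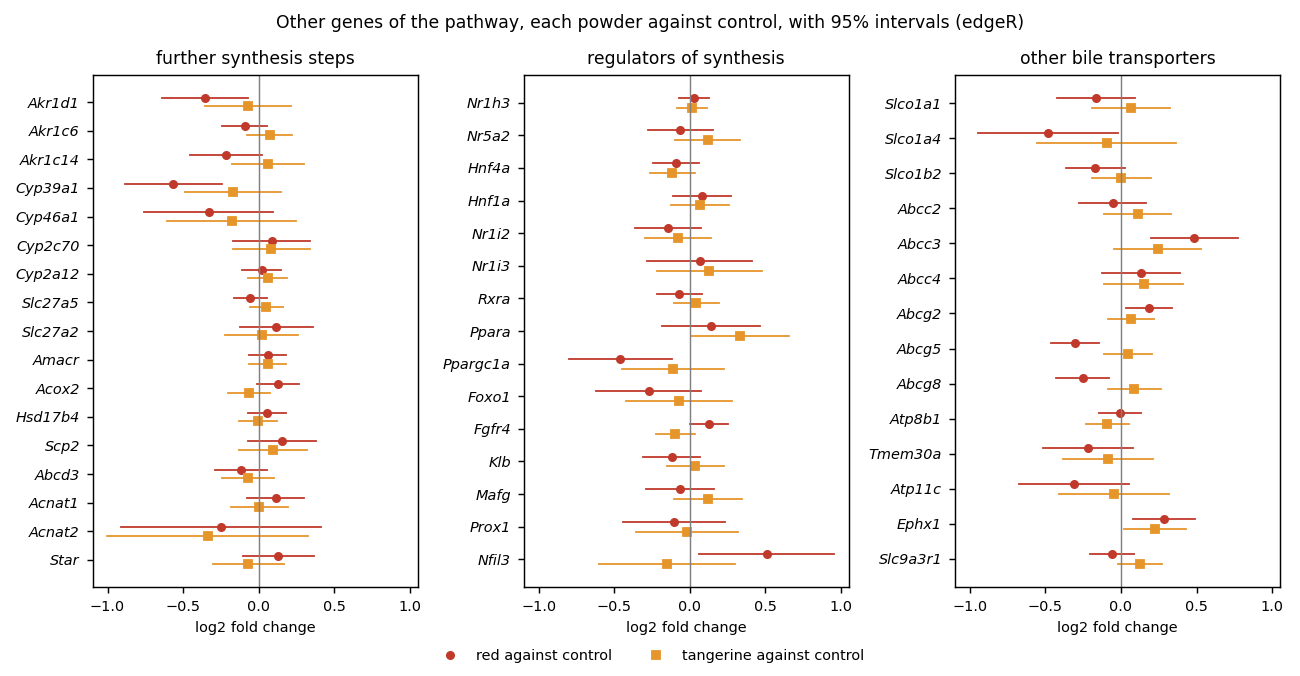
Log2 fold changes of the tested genes of 3 further lists for each powder against control (circles for red, squares for tangerine) with 95% intervals from edgeR, 12 libraries per diet. Most intervals include 0, but on red those of Akr1d1, Cyp39a1 (fold 0.676), Ppargc1a, Slco1a4, Abcg5 (fold 0.811) and Abcg8 lie below it and those of Fgfr4, Nfil3, Abcc3 (fold 1.40), Abcg2 and Ephx1 above it, on tangerine those of Ppara and Ephx1 lie above it, and edgeR called none of the genes shown in these comparisons.

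How the 10 genes varied with the molecular clock was examined because several of them are rhythmic in liver. A further reason was that clock genes were already known to differ between these diets. A clock score was taken as the leading principal component of 10 tested clock genes (85.3% of their variance), signed so that a high score means high Dbp. Dbp, a clock output factor, had medians of 72.5 CPM on control, 15 on red and 68.7 on tangerine, and 0 of 12 red livers reached the control median. Dbp was higher on tangerine than on red (log2 fold change 1.84, edgeR adjusted p = 0.0289), and Arntl, the core activator with the opposite phase, was lower (-1.46, adjusted p = 0.0464). Of the other genes in the score, Nr1d2 and Tef were also called as higher, and Npas2, Clock and Cry1 as lower (edgeR adjusted p from 0.0173 to 0.0497). Over all genes tested 1.71% were called in this comparison. Nr1d1, a repressor of Arntl, had a log2 difference of 0.41 that was not called (adjusted p = 0.252). Per1 and Per2 were not called either (edgeR adjusted p = 0.354 and 0.0664). Leaving out 1 library kept the call of Dbp in 26 of 36 refits and that of Arntl in 17, with adjusted p of at most 0.0684 and 0.0913, both without Tangerine 216. The score averaged 0.832 ± 2.77 (SD, n = 12) in control livers, -2.45 ± 2.25 in red livers and 1.62 ± 2.02 in tangerine livers. The time of day at collection is not given in the sources used here.

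Within diets, after each diet's mean was subtracted, 4 of the 10 genes followed the clock score past an adjusted p of 0.05 (two-sided permutation within diets, 100000 resamples, adjusted over 10 relations). Nr1h4 rose with it (Pearson's r = 0.588, adjusted permutation p = 0.0028, Spearman's rho = 0.615, adjusted p = 0.00065, 36 livers), and r was 0.549 without the 2 libraries farthest from the median score. Cyp7a1 also rose with it (r = 0.526, adjusted permutation p = 0.00413, rho = 0.641, adjusted p = 0.00065), with r = 0.554 without those libraries. Cyp8b1 went the other way (r = -0.543, adjusted permutation p = 0.0036, rho = -0.478, adjusted p = 0.0131), with r = -0.560 without them. Abcb11 did so too (r = -0.460, adjusted permutation p = 0.013, rho = -0.415, adjusted p = 0.0373), but without those 2 libraries r was -0.403 and the adjusted p 0.0565. So the enzyme that commits cholesterol to the pathway and the one that directs it towards cholic acid had opposite signs against the same score. In the 16 livers of the low mt-Te set, however, r of Cyp8b1 was -0.169 (unadjusted permutation p = 0.62). The share of all genes tested that follow the score was not computed, so 4 of 10 cannot be called particular to this list.

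The strength of these relations was not equal in the 3 diets, although the sign was the same in each for all 4 genes. Nr1h4 gave r = 0.668 on control, 0.161 on red and 0.777 on tangerine. Abcb11 gave -0.583, -0.013 and -0.835, and Cyp8b1 gave -0.519, -0.391 and -0.722. Cyp7a1 was the most even, with 0.509, 0.585 and 0.524. Whether the diets differ in these slopes was not tested. The other 6 genes had r between -0.196 (Nr0b2) and 0.297 (Cyp27a1), with adjusted permutation p of 0.201 or more.

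**Figure D4:**
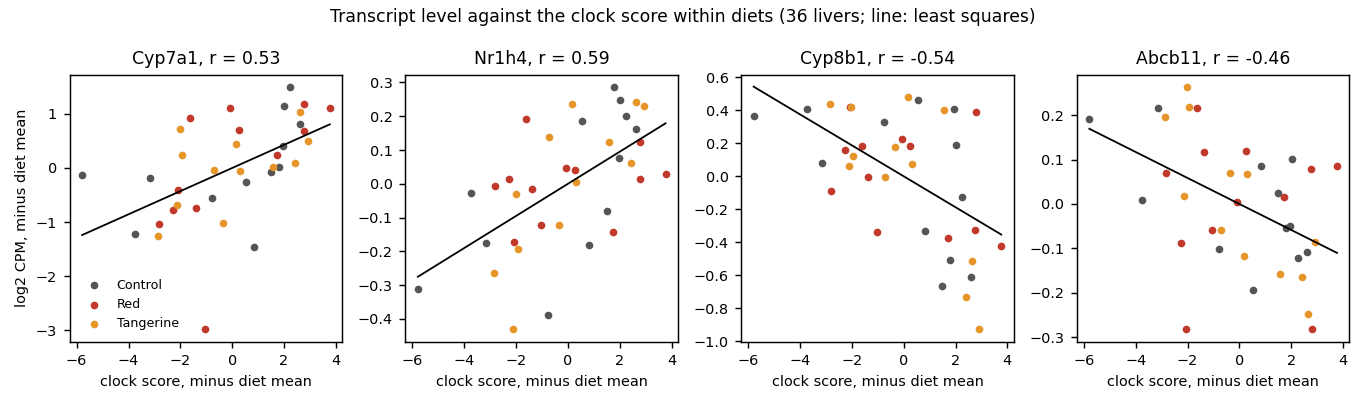
Log2 CPM of Cyp7a1, Nr1h4, Cyp8b1 and Abcb11 against the clock score in 36 livers, each with its diet mean subtracted (points coloured by diet, least-squares line in black). Cyp7a1 and Nr1h4 slope upwards (r = 0.53 and 0.59), Cyp8b1 and Abcb11 downwards (r = -0.54 and -0.46).

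Among the 10 genes themselves, 1 of 45 pairs passed an adjusted p of 0.05 within diets, and 5 had an unadjusted p under 0.05. That pair was Cyp7a1 and Nr1h4, with r = 0.544 (adjusted permutation p = 0.00315) and rho = 0.627 (adjusted p = 0.00135). It was 0.561 without the 2 libraries farthest from the median of Cyp7a1, and 0.595, 0.590 and 0.707 in the control, red and tangerine livers. With the clock score removed from both genes r was 0.341 (permutation p = 0.043, adjusted p = 0.343). The repressor Nr0b2 had r = -0.253 with Cyp7a1 (adjusted permutation p = 0.551), and Nr1h4 with Nr0b2 had r = -0.292 (adjusted p = 0.482). Cyp27a1 and Cyp7b1, successive enzymes of the alternative route, had r = 0.483 (rho = 0.355, unadjusted permutation p = 0.00551, adjusted p = 0.124). Nr1h4 and its target Abcb11 had r = -0.363 (adjusted permutation p = 0.364), the lowest value of the 45. These relations are across livers and hold transcript levels only.

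**Figure D5:**
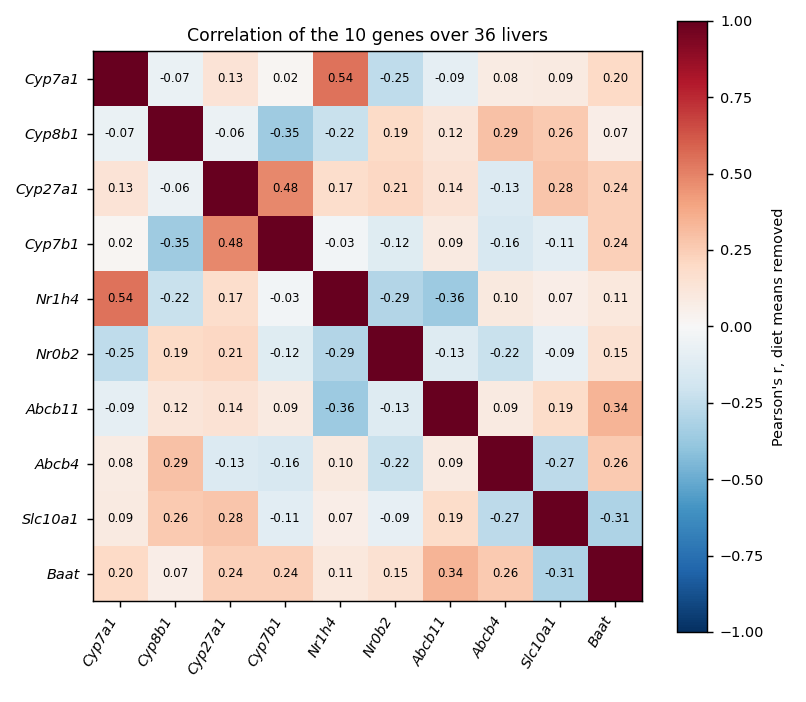
Pearson's r between the 10 genes over 36 livers after subtraction of diet means, from blue (negative) to red (positive). The highest value is that of Cyp7a1 with Nr1h4 (0.54), followed by Cyp27a1 with Cyp7b1 (0.48), and the lowest that of Nr1h4 with Abcb11 (-0.36).

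For each gene up to 3 transcripts with the most similar course over the 36 livers, diet means removed, were taken from the 10968 genes whose log2 CPM averaged 1 or more. They were chosen for a high r, so r is a description without a test. Cyp7a1 was followed by Slc1a2, a glutamate carrier (r = 0.669, rho = 0.728), Urad (0.666) and Nampt (0.644). Its value with Urad, an enzyme of uric acid breakdown, was 0.792 with the means of the mt-Te library sets also removed. Cyp8b1 went with S100a10 (0.821), Psmd11 (0.799) and Sept9 (0.781). The companions of Cyp7b1 were Mup7 (0.865), Selenbp2 (0.855) and Mup12 (0.832), abundant products of male mouse liver in the case of the major urinary proteins, whose near-identical copies make their counts uncertain. Those of Cyp27a1 were C1rb (0.810), Apeh (0.783) and Urod (0.758). Nr1h4 had Tnks1bp1 (0.793), Serpina6, the corticosteroid-binding globulin (0.782), and Ube3b (0.759). Nr0b2 had Tgif1 (0.689) and Bbc3 (0.669), and the r with Tgif1 was 0.537 without 2 libraries. Abcb11 had the lowest maxima, with Gm10179 (0.664) and Ahctf1 (0.660). Abcb4 was matched by Rab30 (0.839), Gm4952 (0.822) and Slc25a20, the mitochondrial carnitine carrier (0.801). For Slc10a1 the closest was Zdhhc9 (0.874), ahead of Gm26588 (0.734) and Gm10705 (0.724), and for Baat they were Cd302 (0.834), Mettl23 (0.822) and Gm6548 (0.800). Tgif1 was not alone in its fall without the 2 libraries farthest from the member's median. There r was 0.609 for Apeh and 0.696 for C1rb with Cyp27a1, and 0.678 for Slc25a20 with Abcb4. It rose for the companions of Cyp7a1 (0.729 with Urad) and for Gm10179 with Abcb11 (0.695). None of the 10 genes appears among the companions of another. With 3 places for each among 10968 genes, that says little about how they vary together.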

How the data were processed

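Per the labels, total RNA from preserved mouse liver was extracted with column kits and made into libraries with a directional kit, and the authors deposited raw read counts per gene for 36 libraries in 1 table. The submitters' processing notes name FastQC, Trimmomatic, edgeR and the build GRCm38.p6. The aligner, the counter and the strand setting are not given in the sources used here, so reads of overlapping genes may be misplaced. Columns were matched by the name in each sample's label. Symbols and positions came from GENCODE M21 (GRCm38), which gave a symbol to 53620 of 53715 identifiers. Libraries of a diet differed beyond sampling noise (chi-square per degree of freedom of 13.7 or more), so all were kept. The p-values of the diet comparisons set a difference between diets against the spread between libraries.

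Genes were filtered with filterByExpr (a count of 10, a total of 15), scaled by TMM and tested with edgeR 4.0.16 (glmQLFit, robust, 1 fit over 36 libraries, no covariate), with Benjamini-Hochberg adjustment over 14068 genes and a threshold of 0.05. CPM used TMM-scaled totals, and log2 CPM a prior count of 2. Intervals are at 95% and follow from the F statistic. Correlations used scipy 1.17.1 and numpy 2.4.6. DESeq2 1.42.0, its size factors, no filter, covariates, single diets and left-out libraries were the alternatives. The named genes were the 10 members, list genes past the threshold or up to 3 with the smallest p of any difference, 3 transcripts alike for each member (2 of these are not reported here), and 3 clock genes. Abcc3 and the further clock genes were added after their values were seen. The members and lists were chosen with earlier results of these data known.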

Additional observations from a re-analysis of the deposited data

How the results depend on the processing

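Refits that left out 1 library at a time (36 per comparison) kept the number of the 10 genes called at 0, except for tangerine against red, where it ranged from 0 to 1 (Abcb11). For the further lists the number ranged from 1 to 2 for red against control (2 without Control 120 or 188 or Red 170), from 0 to 1 for both powders against control (1 without Control 189 or Red 204), from 1 to 3 for any difference (1 without Red 166 or 175) and from 1 to 3 for tangerine against red (1 without Red 175 or Tangerine 215, 216 or 217). DESeq2 gave 1 of the 10 genes for tangerine against red, and for the lists 4 for red against control, 1 for both powders and 4 for any difference, beside 1, 0 and 2. The clock score as covariate took the list calls to 0 for red against control, tangerine against red and any difference. For tangerine against red the lists gave 0 with the mouse number as covariate, 1 without Red 186 and Tangerine 216 and 1 with the mt-Te library set, beside 2, and for any difference each of these gave 1. The mt-Te set and the removal of the clock score from pairs were chosen after seeing the data. The pair Cyp7a1 and Nr1h4 was the 1 call of 45 pairs, and there were 0 calls with tangerine livers alone, in either mt-Te set alone or with the clock score removed. Control livers alone and red livers alone gave 1 call each, of other pairs (Cyp7a1 with Abcb4, adjusted permutation p = 0.0472, and Abcb11 with Baat, 0.0445), while Cyp7a1 with Nr1h4 had 0.632 and 0.279. Of the 4 relations with the clock score, 0 passed with control or red livers alone or in the low mt-Te set, and 2 in the high set. These subsets hold fewer libraries, but the size of r moved as well. In the low and high mt-Te sets r with the clock score was -0.169 and -0.735 for Cyp8b1 and 0.653 and 0.412 for Cyp7a1. For Nr1h4 it was 0.581 and 0.601, and for Abcb11 -0.583 and -0.393. Whether the sets differ in these relations was not tested.

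The fold changes of the 10 genes and of Osgin1, Abcg5, Abcg8, Dbp and Arntl kept their sign and side of the threshold in 299 of 348 values under other settings and in 1521 of 1620 refits without 1 library. Calls of Dbp and Arntl were lost without the low-count filter, with the mouse number or the library set as covariate and without Red 186 and Tangerine 216. Reversals were of values near 0 or came with the clock score, whose cause was not tested. With that covariate the log2 difference was 0.253 for Cyp7a1, -0.060 for Cyp8b1 and 0.090 for Nr1h4 in red against control, -0.027 for Nr1h4 and 0.006 for Baat in tangerine against control, 0.031 for Nr1h4 with both powders, and in tangerine against red -0.619 for Cyp7a1, 0.123 for Cyp8b1, -0.006 for Cyp27a1, -0.024 for Cyp7b1, -0.116 for Nr1h4 and 0.107 for Nr0b2. For Baat in tangerine against control it was 0.004 with DESeq2 size factors, 0.007 without the filter, 0.003 with DESeq2, 0.028 with the mouse number, 0.002 without Red 186 and Tangerine 216 and 0.003 with the library set. For Abcb11 with both powders these settings gave 0.003, 0.006, 0.003, 0.017, 0.022 and 0.003. The mouse number gave -0.046 for Nr1h4 in tangerine against control and 0.005 for Baat with both powders. Without Red 186 and Tangerine 216 Nr1h4 was -0.012 in tangerine against control and Cyp7a1 -0.096 in tangerine against red. The library set gave 0.028, -0.025 and 0.015 for Baat in red against control, tangerine against red and both powders, and -0.042 for Cyp7a1 in tangerine against red. Leaving out 1 library reversed Baat for red against control (range -0.048 to 0.002), tangerine against control (-0.026 to 0.024), tangerine against red (-0.002 to 0.043) and both powders (-0.037 to 0.013). The ranges that crossed 0 elsewhere were those of Cyp8b1 (-0.044 to 0.070), Nr1h4 (-0.022 to 0.045) and Slc10a1 (-0.075 to 0.015) in tangerine against control, Cyp7a1 (-0.042 to 0.179) and Nr0b2 (-0.160 to 0.019) in tangerine against red, and Abcb11 (-0.017 to 0.020) with both powders. Fitting only the groups compared was not run for both powders or any difference, which use all libraries. No paired analysis was possible because no mouse number occurs in more than 1 diet.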
